A study of Homo sapiens with 22 samples.

Results

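The mitochondrial respiratory chain and ATP synthase were represented by 81 nuclear genes whose mRNAs were followed in HEK293T cells, a human embryonic kidney line that carries the SV40 large T antigen. Members were protein-coding nuclear genes named as subunits of complex I (NDUFA, NDUFB, NDUFC, NDUFS and NDUFV), complex II (SDHA to SDHD), complex III (UQCR), complex IV (COX4 to COX8) or complex V (ATP5F, ATP5M and ATP5P). NDUFA4 and NDUFA4L2 were grouped with complex IV. Of 88 genes with such a name, 81 had a mean of at least 1 CPM (a count scaled for the size of its library) over the libraries of 0 to 10 h, out of 10725 protein-coding genes at that level. Each gene was read through its protein-coding transcript with the highest mean count. There were 37 members in complex I, 4 in complex II, 9 in complex III, 12 in complex IV and 19 in complex V.

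In BRIC-Seq, RNA is labelled with bromouridine and the labelled RNA is pulled down with an anti-BrdU antibody after a chase without the label. Cells expressed either a control hairpin (shControl) or a hairpin against ZNF598 (shZNF598), a ubiquitin ligase that senses collided ribosomes. Both were labelled with 150 µM bromouridine for 24 h and collected at 6 chase times, 0, 2, 4, 6 and 10 h and then 24 h. Each shRNA had 2 libraries at each time from 0 to 10 h and 1 library at 24 h, 22 in all, and no source used here says that the 2 libraries of a group came from separate cultures or that the cells were a single clone.

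As background, electrons enter the chain from NADH at complex I and from succinate at complex II, pass through complex III to oxygen at complex IV, and the proton gradient that results drives ATP synthase, complex V. Complexes I, III, IV and V are built from subunits of both the nuclear and the mitochondrial genome, whereas complex II is nuclear-encoded throughout and is also an enzyme of the TCA cycle. The mitochondrially encoded subunits were not analysed here.

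Total counts were 52352359 to 96963584 in the libraries of 0 to 10 h, and 21220829 and 40157613 at 24 h. The lowest count of any member in a library of 0 to 10 h was 66. ZNF598 was at 6.89 and 8.37 CPM in the shControl libraries at 0 h and at 0.756 and 1.05 CPM in the shZNF598 libraries. Its log2 difference averaged over 0 to 10 h was -3.05 ± 0.0868 (SE, adjusted p = 1.17e-18). In the single libraries of 24 h the gap was smaller, with ZNF598 at 4.98 CPM in shControl and 2.45 CPM in shZNF598. Of the markers of this cell line, VIM (130 CPM), INA (12.2 CPM), NEFL (7.05 CPM) and NEFM (1.31 CPM) were present, while PAX2 and LHX1 were at 0.0415 and 0.163 CPM. Of 8 markers of other cell types, 7 were at 0 to 0.0455 CPM, CD3E and HBB at 0 among them, and COL1A1 was at 1.0 CPM. The 2 shControl libraries at 0 h stood further apart (Pearson r of log2 values 0.9768) than the pairs of all other groups (0.9891 to 0.9957).

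The remaining 7 genes with a matching name were paralogues that are known mainly from muscle, testis, lung or low oxygen. COX4I2, COX6A2 and COX7B2 had no read in any of the 20 libraries of 0 to 10 h. COX7A1 had 1 read, COX8C 5, COX6B2 38 and NDUFA4L2 49 over those libraries. Their widely expressed counterparts COX4I1, COX6A1, COX7A2, COX6B1, COX8A and NDUFA4 were all members.

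At the end of labelling, levels per length differed widely between subunits. These values depend on the length of the transcript read, which was chosen by its count. For 8 members the length in GENCODE release 44 was over 1.1 times or under 0.9 times that in the files. NDUFB11 was at 8.61 CPM per kb in shControl with the length in the files and at 20.4 with that of release 44. UQCRB was at 3.61 and 2.38. ATP5F1B, the catalytic beta subunit of ATP synthase, was highest in shControl at 122 ± 20.5 CPM per kb of transcript (SD, n = 2). COX8A, a small subunit of complex IV, followed at 55.8 ± 13.6 CPM per kb, and COX6A1, another, at 49.0 ± 4.18 CPM per kb. The ranges of these 2 overlapped within their SD. UQCRH, the hinge protein of complex III, was at 45.9 CPM per kb. In complex II, SDHB (the iron-sulfur subunit) was at 22.3, SDHD at 17.98, SDHA (the flavoprotein) at 12.85 and SDHC at 1.69 CPM per kb. SDHC and SDHD form the membrane anchor. SDHC was read through a transcript of 13566 bases in the files, and its value per length was the lowest but one. That value rests on this length, since GENCODE release 44 gives 1308 bases for the same transcript, with which SDHC would be at 17.5 CPM per kb. ATP5MGL, a single-exon relative of ATP5MG, was lowest at 1.42 CPM per kb.

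**Figure D1:**
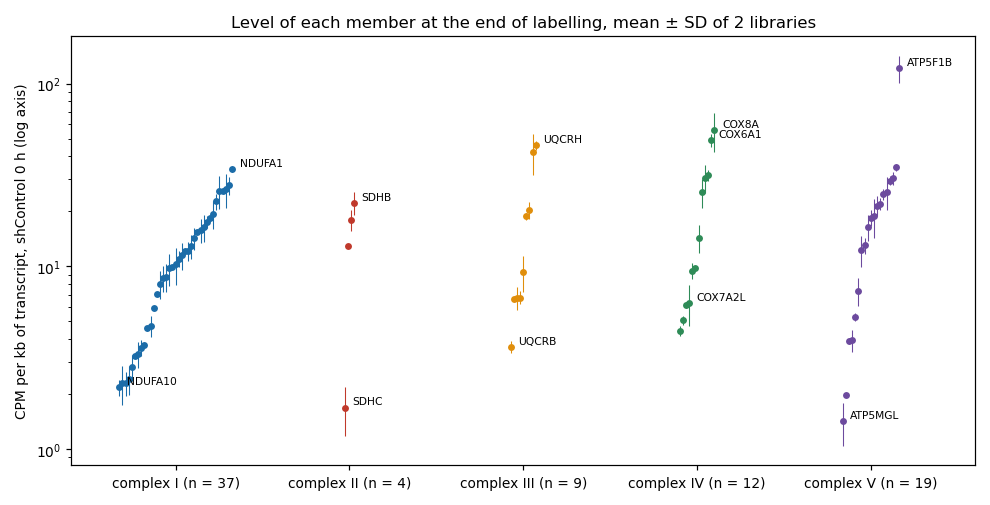
Level of each of the 81 members in shControl at 0 h, as CPM per kb of transcript (lengths as in the files) on a log axis, grouped by complex. Points are the means and bars the SD of 2 libraries. ATP5F1B stood highest at 122 CPM per kb, and the members of complexes I, III, IV and V covered a wide range. The low point in complex II is SDHC at 1.69 CPM per kb, which would be at 17.5 with its length in GENCODE release 44.

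The chase asks how quickly the mRNAs made during labelling are lost. A slope was fitted to log2 CPM against hours over 0 to 10 h for each shRNA, after TMM scaling, which sets the bulk of transcripts near a slope of 0. A slope above 0 therefore stands for an mRNA whose share of the pulled-down RNA rose against the bulk, not for one that accumulated. Whether slower loss alone gave such a rise was not tested. No absolute decay rate is given, because the spike-ins of the protocol were not analysed here. In shControl, 72 of 81 members had a slope above 0 that passed the test (edgeR quasi-likelihood, adjusted p below 0.05), against 33.5% of all 79513 transcripts tested. Only UQCRFS1 passed in the other direction, against 40.8% of all transcripts, and 8 members did not pass. The members' median slope was 0.183 log2 per hour (range -0.072 to 0.285), and that of all protein-coding genes was -0.057. In shZNF598, 70 members passed above 0 (32.7% of all transcripts) and 1 below (38.5%), with a median of 0.149, beside -0.049 for protein-coding genes. All 70 were among the 72 of shControl. Scaled by total counts, the split was 67 above and 7 below in shControl and 64 above and 10 below in shZNF598, against 17.7% above and 60.8% below, and 17.1% above and 58.7% below, of all transcripts under that scaling. The 7 below in shControl included UQCRFS1, ATP5MF-PTCD1, NDUFV3, NDUFA8, SDHC and SDHD.

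Measured as levels, the members' median in shControl was 0.923 times its 0 h value at 2 h, then 1.28 times at 4 h, 1.74 times at 6 h and 3.28 times at 10 h, always relative to the bulk of transcripts. In shZNF598 the corresponding values were 0.972, 1.22, 1.56 and 2.74 times. Most of the separation from other mRNAs thus arose between 4 and 10 h, and only 22 of 81 members in shControl were above their 0 h level at 2 h. The median of all protein-coding genes at 10 h was 0.688 times its 0 h value in shControl and 0.731 times in shZNF598. With 1 library per shRNA at 24 h, the members' median was 2.26 times in shControl and 1.66 times in shZNF598, with no test.

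**Figure D2:**
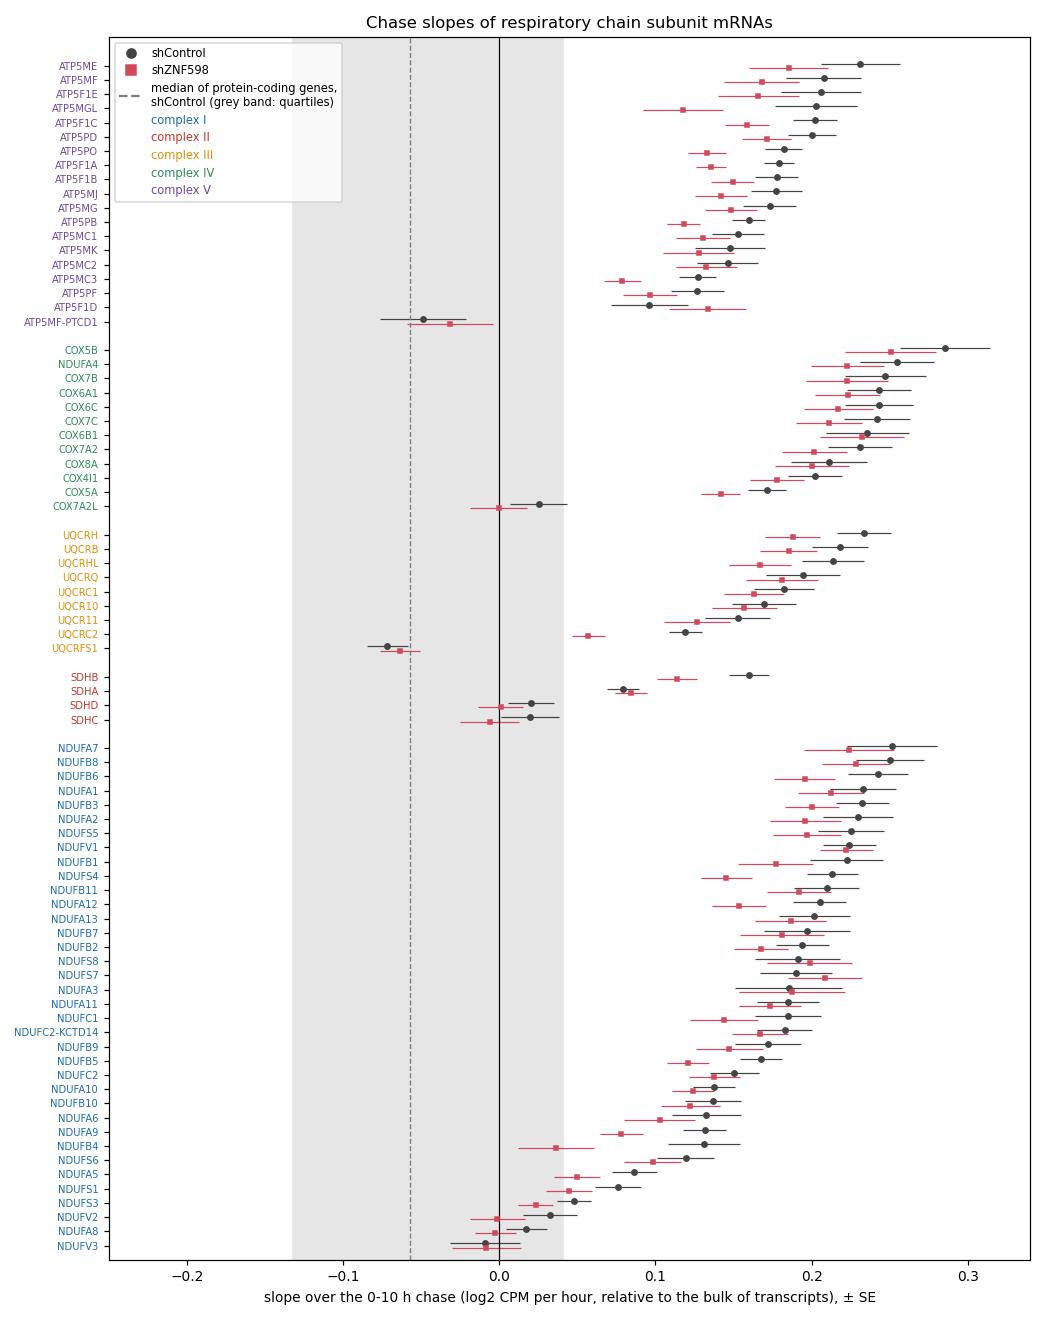
Slopes of the members, except 1 of complex I that is not shown, over the 0 to 10 h chase, in log2 CPM per hour with its SE, in shControl (circles) and shZNF598 (squares), grouped and coloured by complex. The dashed line and grey band give the median of -0.057 and the quartiles of all protein-coding genes in shControl. Most members lie right of the band, while SDHC, SDHD, COX7A2L, UQCRFS1, ATP5MF-PTCD1 and a few complex I subunits lie within it.

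Complex IV had the highest median slope in shControl, 0.239 log2 per hour, with 11 of 12 members passing above 0. COX5B, a zinc-binding subunit, had the highest slope of all members, 0.285 ± 0.0291 (SE, adjusted p = 2.62e-08), and 0.251 ± 0.0293 in shZNF598. Its levels in the shControl libraries were 6.09 and 6.99 CPM at 0 h, 4.78 and 6.00 CPM at 2 h, 7.61 and 8.14 CPM at 4 h, 15.2 and 16.9 CPM at 6 h, and 42.3 and 36.5 CPM at 10 h. All 4 libraries of 6 and 10 h were above all 6 of the earlier times. NDUFA4, first assigned to complex I and now known as a complex IV subunit, followed at 0.255 ± 0.0235 (adjusted p = 6.7e-09). It went from 8.58 and 9.45 CPM at 0 h to 46.6 and 46.9 CPM at 10 h in shControl. The paralogues COX6A1 and COX7A2 had slopes of 0.243 and 0.231. COX4I1 and COX5A, the first nuclear subunits to join the catalytic core, were at 0.203 and 0.171.

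COX7A2L was the exception in complex IV. It is a paralogue of COX7A2 that joins complexes III and IV in supercomplexes. Neither the shControl slope of 0.0252 ± 0.0181 nor the shZNF598 slope of -0.000387 ± 0.0182 passed the test (adjusted p = 0.212 and 0.986). Its shControl libraries were at 15.9 and 22.6 CPM at 0 h and at 18.8 and 24.3 CPM at 10 h, which overlapped. At 24 h it was at 8.56 CPM in shControl and 9.13 CPM in shZNF598.

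Complex II had the lowest median slope, 0.05 in shControl and 0.043 in shZNF598 (log2 per hour), and 2 of its 4 members passed above 0 in each. SDHB (0.16 ± 0.0129, adjusted p = 9.23e-10) and SDHA (0.0793 ± 0.0103, adjusted p = 7.37e-07) passed above 0 in shControl, and both did so in shZNF598. The membrane anchors SDHC (0.0197 ± 0.0186, adjusted p = 0.345) and SDHD (0.0202 ± 0.0149, adjusted p = 0.224) did not. SDHB went from 23.2 and 28.2 CPM at 0 h to 69.8 and 73.2 CPM at 10 h in shControl. SDHA went from 35.23 and 33.99 CPM to 56.0 and 58.4 CPM. SDHD was at 21.7 and 26.4 CPM at 0 h, 31.78 and 33.95 CPM at 6 h and 25.7 and 28.5 CPM at 10 h, so that the libraries of 0 and 10 h overlapped. SDHC was at 27.74 and 17.99 CPM at 0 h and 26.2 and 24.4 CPM at 10 h. At 24 h, none of the 4 complex II mRNAs was above its 0 h level in shControl, and 1 was in shZNF598. For SDHA, 69.4% of the exonic bases are shared with a readthrough locus on the same strand. SDHD shares 23.8% with another gene on the same strand. SDHC was read through the transcript with 13566 bases in the files and 1308 in release 44.

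**Figure D3:**
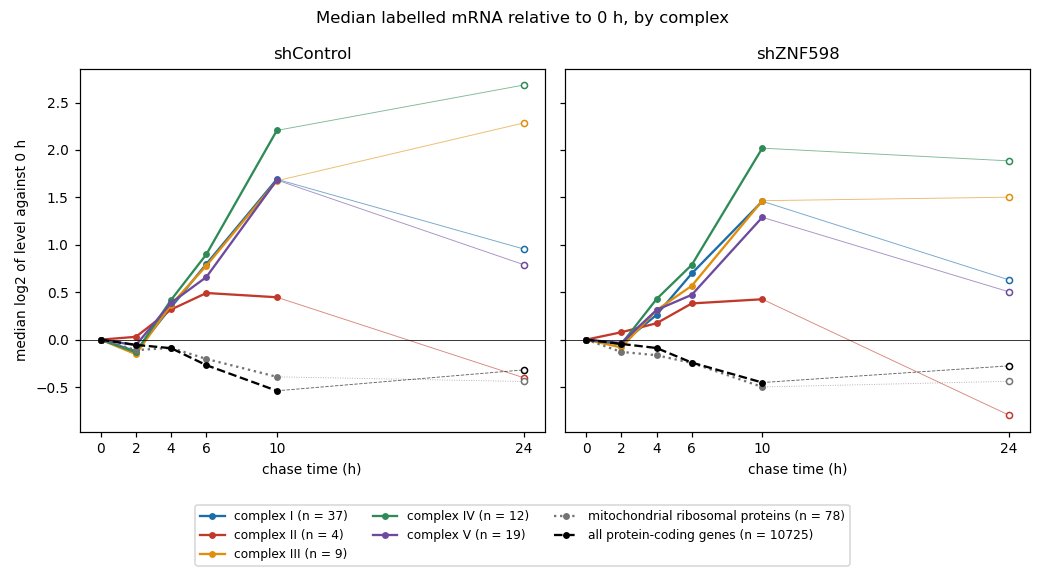
Median log2 level relative to 0 h at each chase time, by complex, for shControl (left) and shZNF598 (right), with mitochondrial ribosomal protein mRNAs and all protein-coding genes for comparison. Open circles at 24 h rest on 1 library per shRNA. At 10 h in shControl complex IV was at 2.21, complexes III and V near 1.68, complex II at 0.447 and protein-coding genes at -0.539.

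Complex III held the only member that passed the test below 0. UQCRFS1, the Rieske iron-sulfur protein, encoded at chr19:29205320-29213151 (minus strand), had a slope of -0.0717 ± 0.0131 in shControl (adjusted p = 5.06e-05) and -0.0636 ± 0.0129 in shZNF598 (adjusted p = 0.000174). Its shControl libraries were at 19.7 and 22.0 CPM at 0 h, 18.76 and 17.95 CPM at 2 h, 16.0 and 16.3 CPM at 4 h, 14.7 and 13.3 CPM at 6 h, and 13.1 and 12.6 CPM at 10 h. The shZNF598 libraries went from 21.0 and 22.3 CPM at 0 h to 13.6 and 15.4 CPM at 10 h. In both shRNAs the libraries of 10 h lay below those of 0 h with no overlap. At 24 h UQCRFS1 was at 15.8 CPM in shControl and 20.6 CPM in shZNF598. Among protein-coding genes, 45.4% had a lower shControl slope than UQCRFS1, so its slope stood near their middle. The other 8 members of complex III passed above 0, from UQCRC2 (0.119), a core protein, to UQCRH (0.234 ± 0.0176, adjusted p = 3.71e-10). UQCRC1, the other core protein, was at 0.182. UQCRHL, a single-exon relative of UQCRH, had a slope of 0.213 beside 0.234, and reads of such near-identical copies are uncertain.

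Complex I had a median slope of 0.185 in shControl, with 33 of 37 members above 0 and 4 that did not pass. Of its 7 conserved core subunits, which carry the flavin and the iron-sulfur clusters, 5 passed and the median was 0.076. For the accessory subunits, counted with the readthrough NDUFC2-KCTD14, it was 28 of 30 and 0.185. The core was split (quartiles 0.04 and 0.191). NDUFV1, NDUFS8 (0.191) and NDUFS7 (0.19) were above the accessory median, and the other core subunits were below it. NDUFV1, the NADH-binding flavoprotein, was at 0.224 ± 0.0169 (adjusted p = 3.82e-10), and NDUFS1, the largest core subunit, at 0.076 ± 0.0147 (adjusted p = 9.79e-05). NDUFV2, which faces NDUFV1 with an iron-sulfur cluster, was at 0.0322 ± 0.0173 (adjusted p = 0.0969). NDUFV2 went from 9.55 and 11.2 CPM at 0 h to 15.1 and 15.2 CPM at 6 h and back to 12.2 and 12.9 CPM at 10 h. NDUFA7, an accessory subunit, had the highest slope of the complex, 0.251 ± 0.0287 (adjusted p = 1.26e-07), and NDUFV3, an accessory subunit of the NADH-oxidizing module, the lowest, -0.00925 ± 0.0222 (adjusted p = 0.715). For NDUFV2, 90.0% of the exonic bases, and for NDUFA7, 77.9%, are shared with another gene on the same strand.

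**Figure D4:**
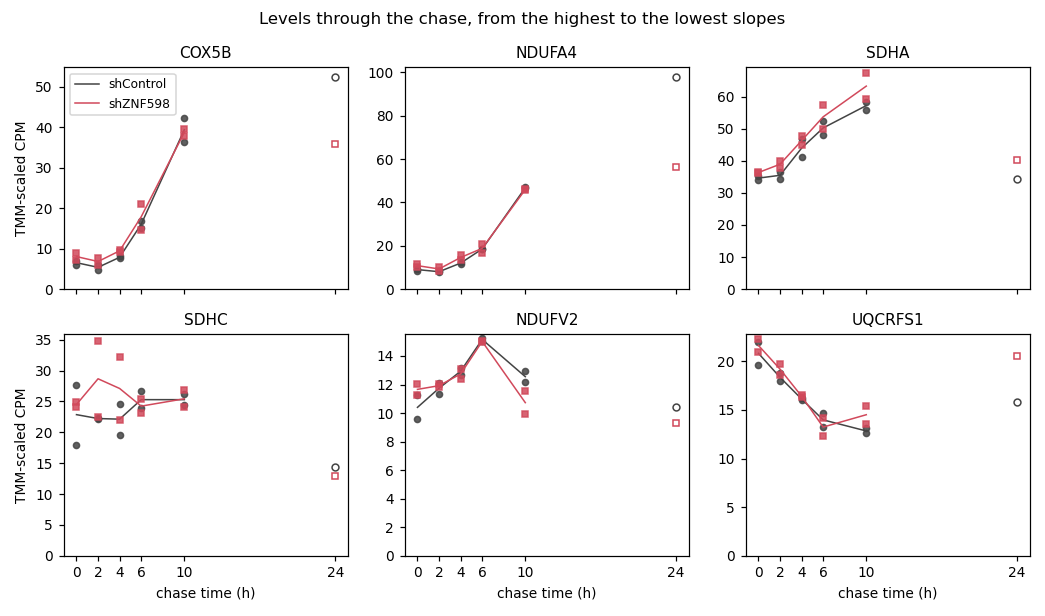
TMM-scaled CPM in every library through the chase for 6 members that span the range of slopes. Filled symbols are the single libraries, lines join the means of 2 libraries, and open symbols at 24 h are single libraries. COX5B and NDUFA4 climb after 4 h, NDUFV2 peaks at 6 h, and UQCRFS1 declines.

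In complex V, 18 of 19 members passed above 0 in shControl, with a median of 0.177. The catalytic subunits ATP5F1A (0.179 ± 0.00954, adjusted p = 3.08e-12) and ATP5F1B (0.178 ± 0.0138, adjusted p = 5.49e-10) had nearly the same slope. The highest was ATP5ME, a small membrane subunit, at 0.231 ± 0.0252 (adjusted p = 6.83e-08). The readthrough transcript ATP5MF-PTCD1 was lowest at -0.0487 ± 0.0276 (adjusted p = 0.115), and all of its exonic bases are shared with ATP5MF or PTCD1. The other readthrough transcript, NDUFC2-KCTD14, was at 0.183, beside 0.151 for NDUFC2, with 99.5% of its exonic bases shared.

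The c subunit, which forms the rotor ring of ATP synthase, is encoded by 3 genes. ATP5MC1, ATP5MC2 and ATP5MC3 differ in the targeting peptide that is cleaved off, and their last 77 codons gave the same peptide by translation. The coding bases of that stretch, with the stop codon, are shown to let the rows be judged as separate measurements. They were read from GENCODE release 44 transcripts on GRCh38, at chr17:48892787-48895871 (plus strand) for ATP5MC1, chr12:53665202-53677398 (minus) for ATP5MC2 and chr2:175176258-175181710 (minus) for ATP5MC3, and capitals mark the 58 of 234 positions at which the 3 are not identical.
ATP5MC1: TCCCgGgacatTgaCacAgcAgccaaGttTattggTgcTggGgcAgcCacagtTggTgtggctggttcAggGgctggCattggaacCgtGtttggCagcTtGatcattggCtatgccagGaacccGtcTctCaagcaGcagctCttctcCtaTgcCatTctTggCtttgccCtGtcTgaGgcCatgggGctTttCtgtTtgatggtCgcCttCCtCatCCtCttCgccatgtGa
ATP5MC2: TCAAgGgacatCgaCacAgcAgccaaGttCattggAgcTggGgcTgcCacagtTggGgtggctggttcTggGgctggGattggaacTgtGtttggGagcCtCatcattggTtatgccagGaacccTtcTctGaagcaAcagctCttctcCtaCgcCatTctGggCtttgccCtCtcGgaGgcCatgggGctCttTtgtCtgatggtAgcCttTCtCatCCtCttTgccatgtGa
ATP5MC3: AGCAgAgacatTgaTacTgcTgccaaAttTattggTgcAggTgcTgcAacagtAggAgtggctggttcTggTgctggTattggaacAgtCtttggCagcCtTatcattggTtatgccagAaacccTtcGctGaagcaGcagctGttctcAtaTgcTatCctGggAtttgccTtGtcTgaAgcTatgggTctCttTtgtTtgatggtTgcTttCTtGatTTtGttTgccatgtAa
ATP5MC1 and ATP5MC2 are identical at 88.5% of these positions, and each of them is identical to ATP5MC3 at 79.9%. Their slopes in shControl were 0.153 ± 0.0168, 0.146 ± 0.0196 and 0.127 ± 0.0117 log2 per hour, and all 3 passed the test (adjusted p = 7.18e-08, 1.08e-06 and 6.42e-09).

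Other genes of the same organelle, from lists chosen with earlier results of these data known, are given for comparison. Of 49 tested assembly factors of the chain, 15 passed above 0 and 19 below in shControl, with a median of -0.011. They ranged from COA7 at -0.215, TMEM70 at -0.213 and COX10 at -0.207 to PET100 at 0.219 and SURF1 at 0.191. Of 13 TCA cycle enzymes, 7 passed above 0 and 2 below, with a median of 0.032. IDH3B, a subunit of isocitrate dehydrogenase, was at 0.192, and DLST, of the oxoglutarate dehydrogenase complex, at -0.133. Of 9 tested regulators of mitochondrial biogenesis, 7 passed below 0 and none above, with a median of -0.123. GABPA, the DNA-binding subunit of an ETS factor, was at -0.188 and TFAM, the mitochondrial DNA packaging factor, at -0.0994. Of 78 mitochondrial ribosomal protein mRNAs, 20 passed above 0 and 40 below, with a median of -0.035. Among all 10725 protein-coding genes, also read as 1 transcript each, 2721 passed above 0 and 5633 below in shControl, with a median of -0.057. Of 82 cytosolic ribosomal protein mRNAs, 78 passed above 0, with a median of 0.196, close to that of the respiratory chain subunits.

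The members also had short transcripts. Over the 71 members whose transcript had the same length in the files and in release 44, the median length was 945 bases against 3571.5 for 8996 protein-coding genes, and the median 3′ UTR was 205 against 1454 bases. TATTTAT, a word of AU-rich elements, occurred in 14.1% of the members' 3′ UTRs and 37.2% of those of the 8996 genes, and TGTANATA, the Pumilio word, in 9.9% and 31.6%. Per kb of 3′ UTR there were 0.243 and 0.322 of the first word and 0.143 and 0.237 of the second, and ATTTA, the core of the first, was at 2.23 and 2.31 per kb. The share of U was alike (25.4% and 25.7%). Across the 71 members, slope in shControl went with length at a Spearman rho of -0.52 and with the 3′ UTR length at -0.26 (Pearson r with log2 length -0.46 and -0.28), beside a rho of -0.18 and -0.3 over all 8996 genes. With coding length rho was -0.5 (Pearson r -0.51), beside 0.02 over the 8996 genes. These are descriptions across genes that share libraries. Of the 10 members with a slope under 0.05, SDHC did not match in length, and the other 9 had a median 3′ UTR of 218 bases.

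Promoters of nuclear subunit genes are known for binding sites of NRF1, of ETS factors such as GABPA, and of YY1. RefSeq promoters on GRCh38 (250 bases before to 50 after the start) matched 65 of 81 members with 78 promoters. The ETS word CCGGAAG was in 28.2% of them on either strand, against 10.3% of all promoters and 17.9% of those of tested protein-coding genes. The NRF1 word GCATGCGC was in 19.2% (3.1% and 5.0%), and the YY1 word AAGATGGC in 16.7% (2.9% and 5.1%). The ETS and the NRF1 word both occurred in the 250 bases before the start for COX5B, SDHD, ATP5PF, COX6A1 and SDHB. Their mRNAs had slopes of 0.285, 0.0202, 0.127, 0.243 and 0.16. These bases are shown for the highest and the lowest slope, COX5B (chr2:97645812-97646061, plus strand) and SDHD (chr11:112086623-112086872, plus strand), with both words in capitals.
COX5B: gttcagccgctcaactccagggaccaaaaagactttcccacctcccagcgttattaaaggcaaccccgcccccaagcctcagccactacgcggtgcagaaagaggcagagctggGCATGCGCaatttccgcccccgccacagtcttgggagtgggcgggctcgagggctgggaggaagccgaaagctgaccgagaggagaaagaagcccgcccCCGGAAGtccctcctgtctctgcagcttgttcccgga
SDHD: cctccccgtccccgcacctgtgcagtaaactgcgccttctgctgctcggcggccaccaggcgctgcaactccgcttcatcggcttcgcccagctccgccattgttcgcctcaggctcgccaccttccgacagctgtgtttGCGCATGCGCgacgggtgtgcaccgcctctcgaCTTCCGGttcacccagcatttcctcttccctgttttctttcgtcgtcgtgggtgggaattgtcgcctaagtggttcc
The median slope of the 21 members with an ETS word in a promoter was 0.197, and of the 44 without it 0.183. For the NRF1 word it was 0.139 (14 members) and 0.185 (51 members), and for the YY1 word 0.182 (12 members) and 0.185 (53 members). A word in a promoter is a match of letters and no measured site.

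The knockdown asks whether less ZNF598 changes these mRNAs. For the level averaged over 0 to 10 h, 14 members were higher in shZNF598 (against 12.3% of all transcripts) and 5 were lower (10.1%). Thus 19 of 81 passed the test against 22.4% of all transcripts, a share near that background. Of the 10725 protein-coding genes, also read as 1 transcript each, 1676 were higher and 1296 lower. The members' median difference was 0.078 log2, and that of protein-coding genes 0.025. It was 0.17 for cytosolic ribosomal protein mRNAs, of which 50 of 82 passed as higher. For mitochondrial ribosomal protein mRNAs it was 0.057, and 13 of 78 passed as higher. In bulk libraries, fewer cells of a kind and less RNA per cell cannot be told apart. The 14 comprised 4 members of complex I, 2 of complex III, 4 of complex IV and 4 of complex V, and no complex II mRNA passed.

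NDUFB4, an accessory subunit in the membrane arm of complex I encoded at chr3:120596336-120602507 (plus strand), had the largest difference of all members, -0.669 ± 0.0695 log2 (SE, adjusted p = 1.42e-07). In shControl it was at 6.61 and 8.37 CPM at 0 h, 5.87 and 5.73 CPM at 2 h, 7.44 and 7.55 CPM at 4 h, 8.51 and 7.90 CPM at 6 h, and 17.2 and 17.2 CPM at 10 h. In shZNF598 it was at 5.48 and 5.86 CPM at 0 h, 4.75 and 4.34 CPM at 2 h, 5.05 and 5.24 CPM at 4 h, 3.67 and 5.95 CPM at 6 h, and 7.56 and 6.45 CPM at 10 h. Both shZNF598 libraries were below both shControl libraries at 5 of 5 times, and at 24 h the single shZNF598 library was at 4.90 CPM and that of shControl at 11.6 CPM. The 6 tested transcripts of NDUFB4, which share reads, were all lower, by -0.73 to -0.61. Over the chase NDUFB4 had a slope of 0.131 with the control hairpin and of 0.0363 (adjusted p = 0.189) with that against ZNF598, and the difference of -0.0949 ± 0.0339 did not pass the test (adjusted p = 0.595).

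ATP5MC1 was lower by -0.28 ± 0.0633 (adjusted p = 0.00263), while ATP5MC2 (0.0941 ± 0.0688, adjusted p = 0.349) and ATP5MC3 (0.0147 ± 0.0494, adjusted p = 0.866) did not pass. For ATP5MC1, both shZNF598 libraries were below both shControl libraries at 3 of 5 times, and the groups overlapped at 0 h and 6 h. At 10 h the ATP5MC1 level was 44.9 and 43.8 CPM in shControl and 31.8 and 31.2 CPM in shZNF598. ATP5MC2 was then at 91.0 and 82.7 CPM in shControl and at 81.9 and 95.7 CPM in shZNF598. The log2 ratio of ATP5MC1 to ATP5MC2 within a library was -1.17 to -0.919 in the 10 shControl libraries of 0 to 10 h and -1.62 to -1.21 in the 10 of shZNF598, so the groups did not overlap. This ratio restates the differences of ATP5MC1 and ATP5MC2 above and is no separate check. How many other gene pairs would not overlap was not counted. UQCRC2 (-0.155 ± 0.0416, adjusted p = 0.00934), ATP5F1C (-0.138 ± 0.0433, adjusted p = 0.0236), the gamma subunit, and ATP5F1A (-0.135 ± 0.0422, adjusted p = 0.0232), the alpha subunit, were the other 3. At 0 h alone ATP5F1C and ATP5F1A were not lower (0.0222 ± 0.0976 and 0.089 ± 0.0946). For UQCRC2, shZNF598 was higher at 0 h, 39.0 and 42.3 CPM against 34.9 and 37.1 CPM, and lower at 10 h, 58.1 and 57.5 CPM against 77.9 and 84.5 CPM.

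NDUFB11, a membrane arm subunit of complex I, had the largest difference among the higher members, 0.273 ± 0.059 (adjusted p = 0.00175), with 15.4 and 15.9 CPM in shZNF598 against 10.6 and 13.4 CPM in shControl at 0 h. UQCRQ, a small subunit of complex III, was higher by 0.215 ± 0.0684 (adjusted p = 0.0255), COX5B by 0.208 ± 0.0702 (adjusted p = 0.0346), NDUFA10, an accessory subunit, by 0.204 ± 0.0521 (adjusted p = 0.00655) and COX6C, of complex IV, by 0.203 ± 0.06 (adjusted p = 0.0169). NDUFA10 was above shControl in both libraries at 5 of 5 times. The count of 19 depended on single libraries. It was 9 without replicate 2 of shZNF598 at 4 h or at 6 h, 10 without replicate 2 of shControl or replicate 1 of shZNF598 at 2 h, 11 without replicate 1 of shZNF598 at 0 h or of shControl at 10 h, and 12 without replicate 1 of shControl at 2 h or either shControl replicate at 6 h. In these 9 fits, 17.6% to 21.7% of all transcripts passed. COX5B passed in 11 of the 20 fits that each left out 1 library, UQCRQ in 13, ATP5F1C in 15, ATP5F1A in 17 and COX6C in 19, and the other 5 named members in all 20. Without the 0 h libraries, 5 members were higher and 7 lower, against 11.1% and 10.6% of all transcripts. Scaled by total counts, 10 were higher and 6 lower, against 9.91% and 11.6%.

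**Figure D5:**
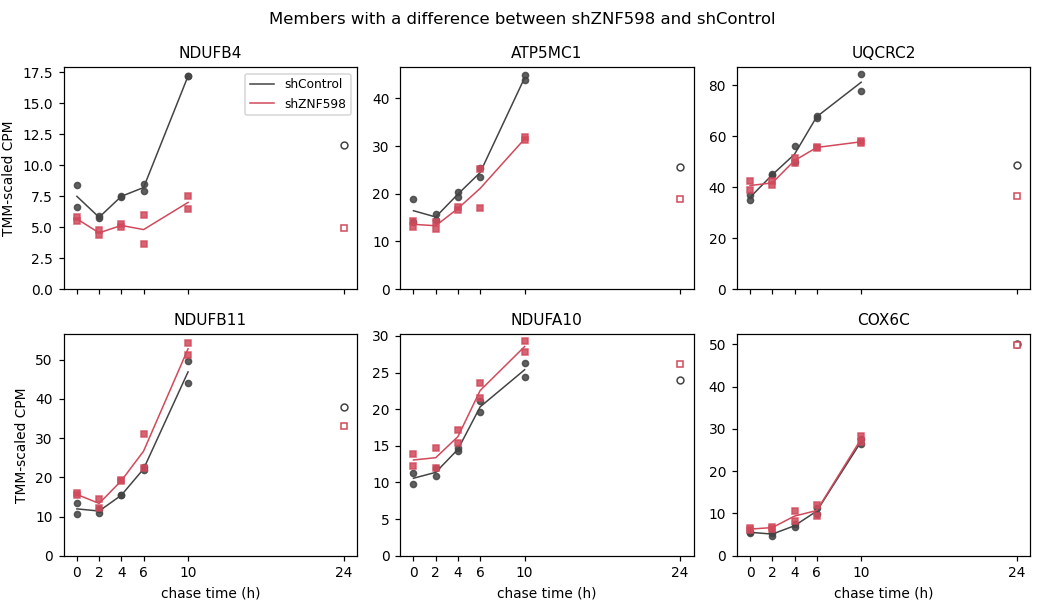
TMM-scaled CPM in every library for 3 members that were lower in shZNF598 (NDUFB4, ATP5MC1, UQCRC2) and 3 that were higher (NDUFB11, NDUFA10, COX6C), averaged over 0 to 10 h. Lines join means of 2 libraries and open symbols are the single libraries of 24 h. For NDUFB4 the 2 groups do not overlap at any chase time.

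At 0 h alone, no member passed (0 of 81, against 0.407% of all transcripts), and DESeq2 also called 0. An unadjusted p under 0.05 was found for 10 members (12.3%), near the 10.1% of all transcripts. The members' median was 0.112 log2 and 70 of 81 were higher in shZNF598, beside 0.017 and 54.0% for protein-coding genes. Cytosolic ribosomal protein mRNAs had a median of 0.203 with 80 of 82 higher, and mitochondrial ribosomal protein mRNAs 0.11 with 60 of 78 higher. The members' median was 0.016 without replicate 1 of shControl at 0 h and 0.224 without replicate 2. The value thus depended on this pair of libraries. Without replicate 2, 4 members passed (COX7A2L, NDUFB11, ATP5MJ and ATP5MGL), against 2.39% of all transcripts. The extremes were ATP5MGL (0.799 ± 0.219, adjusted p = 0.125), NDUFB11 (0.387 ± 0.134, adjusted p = 0.295) and UQCRQ (0.376 ± 0.156, adjusted p = 0.405) above 0, and NDUFB4 (-0.403 ± 0.156, adjusted p = 0.363), ATP5MC1 (-0.275 ± 0.144, adjusted p = 0.53) and ATP5F1D, the delta subunit (-0.148 ± 0.186, adjusted p = 0.838), below.

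The difference in slope between shZNF598 and shControl passed for 0 of 81 members in edgeR, against 0.116% of all transcripts, with 13 members (16.0%) and 5.53% of all transcripts under an unadjusted p of 0.05. DESeq2 called 2, UQCRC2 and ATP5F1A, and 0.728% of all transcripts. The median difference was -0.026 log2 per hour and 73 of 81 members (90.1%) had the lower slope in shZNF598, beside a median of 0.004 and 43.6% with the lower slope for protein-coding genes. For cytosolic ribosomal protein mRNAs 74 of 82 were lower, with a median of -0.017. The slopes and the 0 h comparison share the same 0 h libraries, so a higher value at 0 h in shZNF598 and a lower slope are not separate measurements. Without the 0 h libraries the median difference was -0.041, and over 0 to 4 h it was 0.001. NDUFB4 (-0.0949), ATP5MGL (-0.085 ± 0.0372, adjusted p = 0.834) and NDUFS4, an accessory subunit of complex I (-0.0679 ± 0.0235, adjusted p = 0.56), had the lowest differences, and ATP5F1D (0.0374 ± 0.0353, adjusted p = 1), NDUFS7, a core subunit (0.0185 ± 0.0337, adjusted p = 1) and ATP5MF-PTCD1 (0.0172 ± 0.0388, adjusted p = 1) the highest. For UQCRC2 the difference was -0.0623 ± 0.015 (adjusted p = 0.147).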

How the data were processed

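The deposited values are raw read counts per transcript, 1 file per library, made by the authors. According to the labels and the study's methods, total RNA was mixed with spike-ins, immunoprecipitated, depleted of rRNA and made into stranded libraries. Reads were trimmed with fastp, noncoding RNA was removed, the rest were aligned with STAR 2.7.0a to hg38 with GENCODE release 32, allowing 1 mismatch and 1 locus, and featureCounts gave the counts. CASAVA 1.8 is also named in the submitters' processing notes. The strand setting is not given in the sources used here. The deposited tables also hold each transcript's length in codons. Restricting reads to 1 locus lowers counts of near-identical copies, and counting per transcript lets isoforms share reads.

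Identifiers were named with GENCODE release 44 on GRCh38, where 92.2% of 227264 matched with their version and 98.4% without it. The tests were run in edgeR 4.0.16 (with limma 3.58.1 and R 4.3.3) on the 79513 transcripts that averaged 1 CPM or more across the 20 libraries of 0 to 10 h, after TMM scaling. Knockdown comparisons came from group means, and slopes from an intercept and a term in hours for each shRNA. All used quasi-likelihood F tests, p-values were adjusted by Benjamini-Hochberg over every transcript kept, and an SE is the absolute log2 value over the root of its F. The 24 h libraries entered levels and 1 alternative only. The functions were tested on simulated data. P-values of the knockdown comparisons measure the spread between the libraries of a group, which may be technical. For the slopes, p-values and SEs also take in departures from a straight line over the chase hours. Levels are TMM-scaled CPM, and medians against 0 h used a pseudocount of 0.1 CPM. Correlations used scipy 1.17.1.

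The members and lists were chosen with earlier results of these data known. Named were a fixed set of subunits and paralogues, the 3 highest and 3 lowest slopes in shControl and the extremes of each complex, for other comparisons the 5 largest in each direction among more than 10 that passed, or else the 3 highest and 3 lowest, and the 3 highest levels per length. NDUFV2, ATP5MJ and genes of the comparison lists were added after their values were seen. Results of 1 member are not reported here by name. Alternatives were DESeq2 1.42.0, its size factors, total counts, other filters, 1 row per gene, the row with the highest count per length, a replicate block, other chase windows and leaving out libraries.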

Additional observations from a re-analysis of the deposited data

How the results depend on the processing

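Counts of members that passed the test for the slopes stayed within 1.5 times of 73 in shControl and 71 in shZNF598 under other scaling, DESeq2, other filters, 1 row per gene, the row with the highest count per length, 0-6 h, and without the 0 h libraries or all libraries of replicate 1 or 2. They fell to 28 and 27 over 0-4 h (34.2% and 33.9% of all transcripts) and to 46 and 39 over 0-24 h (28.9% and 26.2%). Over 0-4 h, 25 and 24 of them were above 0, against 12.9% and 13.4% of all transcripts. Leaving out single libraries gave 73 to 76 and 71 to 72. For the averaged knockdown the 19 became 12 without the 0 h libraries and 0 without replicate 1 or replicate 2 of every group (1 library per group, so fitted with hours as a linear term, with 0.335% and 0.672% of all transcripts), and 9 to 28 when a single library was left out. At 0 h it was 1 with no filter on low counts (ATP5MGL, with 0.43% of all transcripts) and 0 to 4 with a library left out. For the slope difference it was 0 throughout, except 2 with the DESeq2 Wald test (0.728% of all transcripts). Total-count scaling lowered the median slope of protein-coding genes in shControl to -0.125 and that of members to 0.115, so the gap of 0.241 was as with TMM (0.24). It ranged from 0.096 over 0-24 h to 0.283 without the 0 h libraries. The causes of these changes were not tested.

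The 45 pairs of groups gave correlations of same-numbered libraries of -0.328 to 0.476 (median 0.0293, 12 above 0.1), and not every pair exceeded 0.1, so the numbers were not taken to pair the libraries. With the replicate block the counts were 73 and 71 for the slopes, 22 for the averaged knockdown (23.4% of all transcripts), 0 at 0 h and 0 for the slope difference.

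Values near 0 turned direction. In shControl, the slope of NDUFV3 was 0.012 without replicate 2 of shControl at 0 h (-0.026 to 0.022 over the fits that left out libraries), 0.003 without replicate 2 of every group, with the DESeq2 Wald test and with its size factors, 0.022 without the 0 h libraries, 0.016 over 0-24 h and 0.016 with the row of highest count per length. COX7A2L was at -0.005 and SDHC at -0.01 with a minimum of 5 CPM, at -0.044 and -0.022 over 0-24 h, and at -0.042 and -0.048 with total counts, and SDHC at -0.022 over 0-4 h. ATP5MF-PTCD1 was at 0.054 over 0-24 h. The shZNF598 slope of SDHB was -0.001 over 0-24 h. For the slope difference, ATP5MF-PTCD1 was at -0.027 over 0-24 h, and the fits that left out libraries gave -0.014 to 0.049 for ATP5MF-PTCD1, -0.034 to 0.066 for NDUFS7 and -0.012 to 0.083 for ATP5F1D. Below 0 were those without replicate 2 of shZNF598 at 10 h (-0.014, -0.008 and -0.001), without replicate 2 of shControl at 0 h (-0.007 and -0.014 for ATP5MF-PTCD1 and NDUFS7) and without replicate 2 of every group (-0.034 and -0.012 for NDUFS7 and ATP5F1D). With counts of at least 66 per library, depth limits mainly ATP5MGL and the 7 paralogues below 1 CPM.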
